A study of Mus musculus with 5 samples.

Results

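The genes described here encode the subunits of the glutamate, GABA and glycine receptors, through which retinal neurons receive excitatory and inhibitory input. They were chosen by gene symbol (Gria, Grik, Grid, Grin and Grm genes, GABA-A and GABA-B receptor genes, and Glra and Glrb genes, leaving out Grik1 and Grm6). The symbol rule uses no measured value, but it was set with earlier results of these data known. The symbols matched 50 of the 25655 genes counted, and 49 of these were among the 14992 genes that passed the filter on low counts. The gene that did not pass was Gabra6, with 1 count in DMSO replicate 2 and 0 in the other retinas. A gene for an interacting protein also met the symbol rule, so that 49 of the 50 genes encode subunits.

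Ionotropic glutamate receptors are cation channels of the AMPA, kainate and NMDA classes, with the delta subunits as relatives that are not gated by glutamate in the usual way. The metabotropic glutamate receptors act through G proteins. GABA-A receptors are chloride channels built from several subunit kinds, and those made of rho subunits are known from the axon terminals of retinal bipolar cells. GABA-B receptors are obligate pairs of Gabbr1 and Gabbr2, and glycine receptors combine alpha subunits with the beta subunit Glrb. In the retina, photoreceptors and bipolar cells release glutamate, whereas amacrine cells release GABA or glycine.

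RNA was sequenced from injured whole retinas of wild-type C57BL/6 mice of both sexes aged 8 to 10 weeks, taken 7 days after optic nerve crush (ONC), an injury to the axons of the ganglion cells. The mice received the aldose reductase inhibitor Sorbinil at 10 mg/kg or its vehicle DMSO by intraperitoneal injection, starting before ONC, and the comparison addresses what Sorbinil treatment changed in the injured retina. DMSO was given to 3 mice, numbered 1 to 3, and Sorbinil to the 2 mice used here, numbered 1 and 3. Another Sorbinil retina, number 2, was excluded by the authors and was not analysed here. All 5 retinas were injured, so that no value below compares an injured with an uninjured retina.

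The retinas held between 56096541 and 90288552 counts on genes. Markers of rods, the most numerous cells of the mouse retina, were present in each library. Levels are given in CPM, counts scaled to library size with the TMM factors. Sorbinil replicate 1 stood apart from the other 4 retinas. Its scaling factor was 0.854 against 0.991 to 1.07 in the others, all 13 rod markers were above every DMSO retina, and the summed markers of amacrine cells were 373 CPM against 909 to 1180 CPM in DMSO retinas. Results are therefore given with both Sorbinil retinas and then for each of them. In whole retina, fewer cells of a type and less RNA per cell cannot be told apart.

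With both Sorbinil retinas, no receptor subunit gene passed the study's threshold, a change of at least 2-fold with a raw p (before adjustment over genes) no higher than 0.1. Of the 49 genes tested, 0 were called lower, where 1.35% of all genes tested were, and 0 were called higher, against 0.36% of all genes. Without the fold limit, 1 of the 49 was lower (Gabrd, the delta subunit of GABA-A receptors), against 4.33% of all genes, and 0 were higher, against 6.98%. At a raw p under 0.05, edgeR's quasi-likelihood test counted 0 of the 49, its likelihood ratio test 0, and the DESeq2 Wald test 1. The adjusted p-values of the quasi-likelihood test (Benjamini-Hochberg, over all genes tested) ran from 0.758 to 0.999. The fitted log2 changes, Sorbinil against DMSO, ran from -0.67 for Gabrd to 0.17 for Grin2b with a median of -0.24, beside a median of -0.01 over all genes tested. They were below 0 for 41 of the 49 genes and above 0 for 8.

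The median of -0.24 stood between retinas that lay on opposite sides of DMSO. In Sorbinil replicate 1, 47 of the 49 genes were below every DMSO retina (95.9%), against 41.7% of all genes tested, and 1 gene, Grm8, was above every DMSO retina, against 43.4% of all genes. The remaining gene, Gabra5, lay within the DMSO range. In that retina, 27 of the 49 genes were at least 2-fold below the DMSO mean, which was seen for 17.8% of all genes, and the median member stood at 47.2% of its DMSO mean. In Sorbinil replicate 3, 30 of the 49 were above every DMSO retina (61.2%, against 27.3% of all genes) and 3 were below every DMSO retina (Gabra5, Gabrd and Glra4), against 29.1% of all genes. The median member in replicate 3 stood at 116.5% of its DMSO mean. Both Sorbinil retinas were below every DMSO retina for 2 of the 49 genes (Gabrd and Glra4), against 10.5% of all genes, and both were above for 0, against 12.8%.

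**Figure D1:**
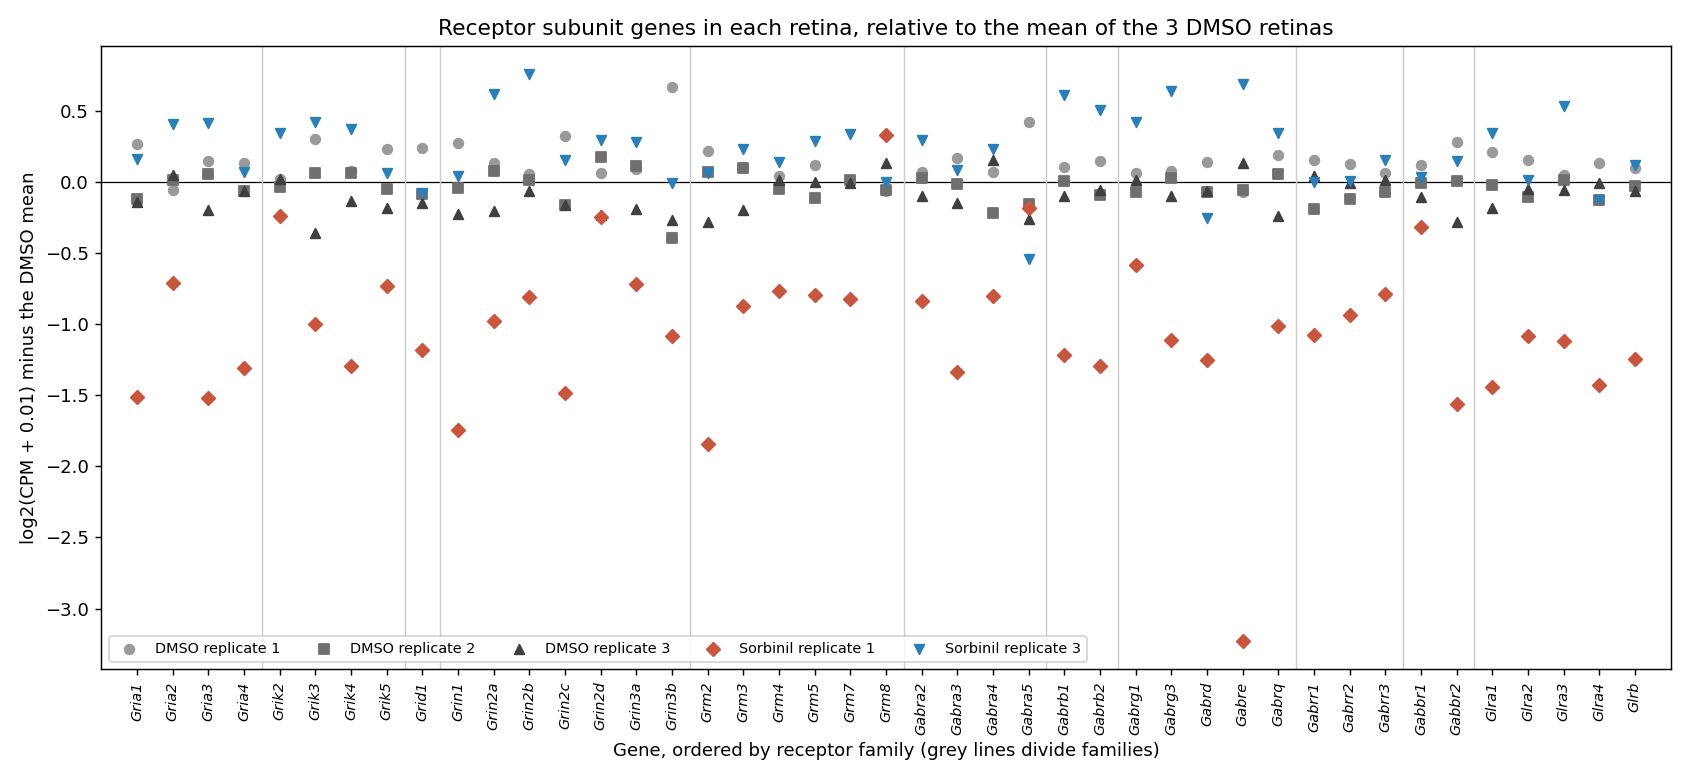
Level of 43 of the tested genes in each retina, as log2(CPM + 0.01) minus the mean of the 3 DMSO retinas, with 1 marker shape and colour per retina and grey lines between receptor families. Sorbinil replicate 1 lies under the DMSO points for 41 of these and over them for Grm8, whereas Sorbinil replicate 3 lies over them for 25.

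DMSO retinas differed little among themselves. For the median member the highest DMSO retina was 1.19-fold the lowest, and 46 of the 49 genes stayed under 1.5-fold. The widest was Grin3b, an NMDA subunit of low level, at 2.12-fold. When Sorbinil replicate 3 was left out, so that Sorbinil replicate 1 was compared alone with DMSO, 26 of the 49 genes were called lower at the study's threshold, against 17.4% of 15266 genes. That fit takes the lone retina to vary like the DMSO retinas. Its adjusted p-value was under 0.05 for 41 of the 49 genes, and for 5576 of all genes (edgeR). When Sorbinil replicate 1 was left out in turn, 19 of the 49 genes were higher with a raw p no higher than 0.1, against 8.05% of 15357 genes, and 0 were lower, against 6.77%. None of them was called with the fold limit, and the lowest adjusted p-value was 0.419, so the direction of the receptor genes in Sorbinil retinas depended on which retina was used.

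4 genes are singled out for the following paragraphs. They include Gabrd, the only gene with a raw p no higher than 0.1, and Grm8, the one gene above DMSO in Sorbinil replicate 1. The others are Grin1 and Grin2b, whose shares of the NMDA level per length did not overlap between the groups. Lack of overlap was not particular to them, since it was also seen for Grin2a and for shares in other families. Upstream sequences of the 4 genes are shown so that these genes can be placed in the genome. Each is the 250 bases before the outermost start of the gene in GENCODE M39 on GRCm39, 5' to 3' on the gene's own strand, which is the minus strand for all 4. The windows are chr4:155482873-155483122 for Gabrd, chr2:25209227-25209476 for Grin1, chr6:136150549-136150798 for Grin2b and chr6:28135178-28135427 for Grm8. Capitals mark the GC box letters GGGCGG or their reverse complement CCGCCC.
Gabrd: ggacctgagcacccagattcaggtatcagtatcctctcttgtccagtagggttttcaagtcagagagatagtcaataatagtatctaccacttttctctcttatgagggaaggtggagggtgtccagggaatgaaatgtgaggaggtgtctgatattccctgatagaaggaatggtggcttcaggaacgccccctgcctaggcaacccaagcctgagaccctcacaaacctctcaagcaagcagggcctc
Grin1: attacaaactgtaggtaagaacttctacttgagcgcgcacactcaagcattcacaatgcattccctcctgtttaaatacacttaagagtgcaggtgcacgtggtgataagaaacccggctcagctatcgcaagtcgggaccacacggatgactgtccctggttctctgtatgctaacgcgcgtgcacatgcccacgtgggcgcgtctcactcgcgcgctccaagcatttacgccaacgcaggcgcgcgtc
Grin2b: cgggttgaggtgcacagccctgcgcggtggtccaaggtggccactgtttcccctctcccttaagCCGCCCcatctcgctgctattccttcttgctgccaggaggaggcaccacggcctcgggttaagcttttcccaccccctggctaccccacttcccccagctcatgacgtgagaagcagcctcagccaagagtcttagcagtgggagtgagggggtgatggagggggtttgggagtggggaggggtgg
Grm8: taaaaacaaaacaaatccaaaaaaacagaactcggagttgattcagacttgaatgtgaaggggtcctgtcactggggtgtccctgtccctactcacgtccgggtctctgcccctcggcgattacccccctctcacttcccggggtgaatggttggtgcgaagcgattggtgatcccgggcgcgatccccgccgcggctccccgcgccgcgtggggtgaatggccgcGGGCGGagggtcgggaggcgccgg

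Grin2b and Grm8 each hold 1 GC box, and Gabrd and Grin1 hold 0. Over all protein-coding genes of the annotation, 29.9% of 21770 such windows hold a GC box, and 15 of the 50 genes described here do. The TAATCC core that the photoreceptor factor CRX binds (GGATTA on the other strand) was in 0 of the 4 windows, in 4 of the 50 genes, and in 7.7% of all windows. Neither motif contains the other. GC content was 50.0% for Gabrd, 54.0% for Grin1, 63.2% for Grin2b and 62.4% for Grm8, beside a median of 51.2% over all windows, and CG dinucleotides numbered 1, 21, 8 and 24 beside a median of 6. These are descriptions of the letters in 1 window per gene, and no binding was measured.

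Among the AMPA receptor subunits, which carry most fast excitatory transmission, Gria1 had the highest level per length. Gria1 (chromosome 11, 56902153 to 57221080, plus strand) measured 66.2, 50.7 and 50.0 CPM across DMSO replicates 1 to 3, against 19.35 and 61.45 CPM for Sorbinil replicates 1 and 3. Sorbinil replicate 1 was far under the DMSO range and replicate 3 was inside it. Its log2 change in edgeR's fit was -0.46 (SE 0.47, raw p 0.368, adjusted p 0.766). Gria4 and Gria3 were at 40.3% and 34.7% of the DMSO mean in Sorbinil replicate 1, and in replicate 3 Gria4 was inside the DMSO range and Gria3 above it. Gria2, the subunit that makes AMPA channels impermeable to calcium once its RNA is edited, was the AMPA gene least below DMSO in that retina, at 61.0%, and was at 132.7% in Sorbinil replicate 3. Its log2 change was -0.05 (raw p 0.892).

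Kainate receptors are channels that are also gated by glutamate. Among their genes described here Grik5 had the highest level per length, and it encodes a high-affinity subunit that works with Grik1 to Grik3. Grik1, which the choice of genes left out, was at a higher CPM than Grik5 in every retina. Grik5 gave 68.9, 56.7 and 51.7 CPM across the DMSO retinas, against 35.25 and 61.1 CPM for Sorbinil replicates 1 and 3, with a log2 change of -0.29 (SE 0.26, raw p 0.309, adjusted p 0.758). Grik2 was the kainate gene least below DMSO in Sorbinil replicate 1. It ran from 17.5 to 18.25 CPM in DMSO retinas, and was 15.2 CPM in Sorbinil replicate 1 and 22.8 CPM in replicate 3. Grik3 and Grik4, at low level throughout, were at 49.05% and 40.4% of their DMSO means in replicate 1 and at 131.3% and 129.2% in replicate 3. Grid1, a delta subunit that acts in synapse formation, measured 25.8, 20.7 and 19.8 CPM with DMSO against 9.645 and 20.8 CPM with Sorbinil, a log2 change of -0.54 (SE 0.34, raw p 0.169, adjusted p 0.758).

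NMDA receptors combine GluN1 with GluN2 or GluN3 subunits. Grin1 (chromosome 2, 25181186 to 25209226, minus strand) encodes GluN1, which every NMDA receptor contains. Its values were 90.15, 72.5 and 64.0 CPM across DMSO replicates 1 to 3, against 22.3 and 76.9 CPM for Sorbinil replicates 1 and 3. In Sorbinil replicate 1 it was at 29.5% of the DMSO mean, the lowest of the NMDA genes, and in Sorbinil replicate 3 at 101.8%, inside the DMSO range. Between the groups this gave a log2 change of -0.61 (SE 0.51, raw p 0.277, adjusted p 0.758).

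Grin2b (chromosome 6, 135690231 to 136150548, minus strand) encodes GluN2B, one of the glutamate-binding subunits that set the kinetics of the channel. It gave 29.8, 28.9 and 27.4 CPM in DMSO retinas, a narrow range, and 16.3 and 48.4 CPM for Sorbinil replicates 1 and 3, which lay on either side of it. Its log2 change of 0.17 (SE 0.43, raw p 0.697, adjusted p 0.891) was the highest of the 49. Grin2a, the other main GluN2 subunit of mature neurons, was at 50.4% and 152.5% of its DMSO mean in the same 2 retinas. Grin2d, which gives slow-decaying channels, was at 83.4% and 122.0%, and Grin2c at 35.0% and 109.9%. Grin3a and Grin3b encode the glycine-binding GluN3 subunits, and were at 60.5% and 43.35% of DMSO in Sorbinil replicate 1 and at 120.7% and 94.0% in replicate 3.

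Since a proportion within a library does not move with the scaling, the share of each subunit in the summed level of its family was compared, with levels per length (CPM per kb of merged exons). The kainate sum leaves out Grik1 and the metabotropic sum leaves out Grm6. Grin1 took 62.75%, 58.0% and 59.4% of the NMDA level across DMSO replicates 1 to 3, against 41.0% and 52.7% for Sorbinil replicates 1 and 3. The mean was 60.1% ± 2.43 (SD, n = 3) with DMSO and 46.8% ± 8.24 (SD, n = 2) with Sorbinil, a difference of -13.2 percentage points, and the groups did not overlap. The two-sided exact permutation p-value was 0.1, the smallest that 10 groupings of 5 retinas allow, so a p-value under 0.05 could not be reached. With the length of the canonical transcript in place of the merged exons, the shares were 76.3%, 72.5% and 73.8% with DMSO and 56.9% and 68.6% with Sorbinil. With offsets for GC content and length they were 61.4%, 57.6% and 59.2% with DMSO and 41.75% and 53.0% with Sorbinil, again apart.

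In terms of its partners, the level of Grin1 was 2.005, 1.61 and 1.71 times the summed level of Grin2a to Grin2d across the DMSO retinas, against 0.802 and 1.27 times for Sorbinil replicates 1 and 3. This proportion was looked at after the values were seen and was not tested. Grin2b took 9.04%, 10.1% and 11.1% of the NMDA level with DMSO and 13.1% and 14.5% with Sorbinil, but the groups overlapped with the GC offsets. The same held for Grin2a, at 7.74%, 8.58% and 8.17% with DMSO and 9.49% and 10.7% with Sorbinil. Shares of genes in other families, such as Gria2 and Grik2, also lay apart between the groups. Those of Gabra2, Gabrg1, Gabrg3, Gabrq and Glra4 stayed apart with the canonical length and with the GC offsets, as that of Grin1 did. The share of Grin2d was 12.8%, 16.0% and 13.9% with DMSO and 27.3% in Sorbinil replicate 1, while Sorbinil replicate 3, at 14.9%, was inside the DMSO range. A long noncoding gene, Grin1os, lies on the other strand over 1307 bases of the Grin1 exons, while no source states whether strand was used in counting, so its reads could not be told apart from those of Grin1. Exons of 29 of the 50 genes overlap a gene on the other strand, and for 7 of them (Grik5, Grin1 and Grin3b among them) that gene codes for a protein.

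**Figure D2:**
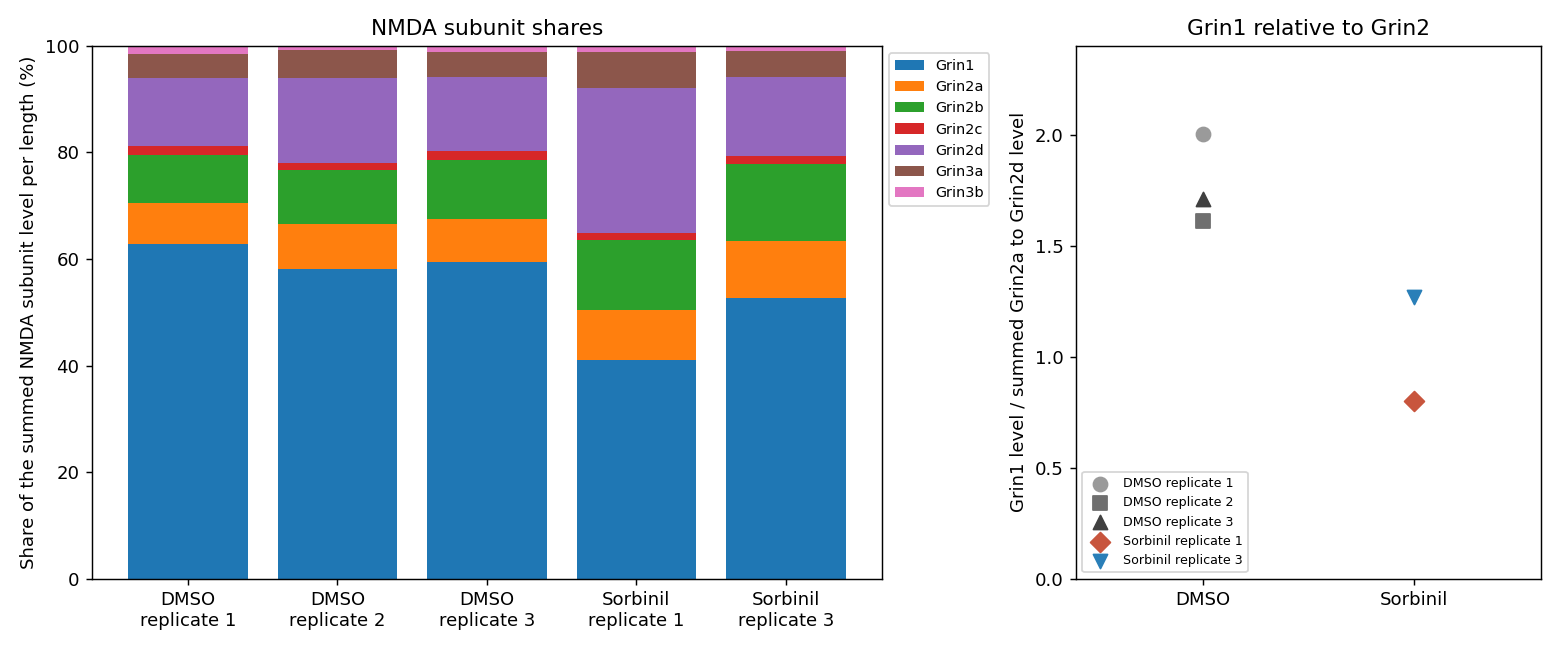
Left, the share of each NMDA subunit gene in the summed level per length of the family (%), as stacked bars, 1 per retina, and right, the level of Grin1 divided by the summed level of Grin2a to Grin2d, 1 point per retina. Grin1 takes 58.0% to 62.75% in the 3 DMSO retinas and 41.0% and 52.7% in Sorbinil replicates 1 and 3.

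Of the 7 metabotropic glutamate receptor genes described here, 6 were below every DMSO retina in Sorbinil replicate 1 and Grm8 was above. Grm2, a group II receptor known from starburst amacrine cells, was the lowest of them, at 27.5% of the DMSO mean in that retina and at 103.3% in replicate 3. Grm5, a group I receptor coupled to calcium release, had the highest level per length of these 7. Grm6, which the choice of genes left out, was at a higher CPM than Grm5 in every retina. Grm5 measured 50.8, 43.4 and 46.9 CPM across the DMSO retinas, against 27.0 and 57.2 CPM for Sorbinil replicates 1 and 3 (log2 change -0.16, SE 0.31, raw p 0.629, adjusted p 0.865). Grm3, Grm4 and Grm7 were between 54.2% and 58.5% in replicate 1 and between 110.0% and 126.1% in replicate 3.

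Grm8 (chromosome 6, 27275118 to 28135177, minus strand) is a presynaptic group III receptor of high glutamate affinity. It gave 33.5, 33.7 and 38.5 CPM across DMSO replicates 1 to 3, against 44.2 and 35.1 CPM for Sorbinil replicates 1 and 3. Replicate 1 was above every DMSO retina, at 125.4% of their mean, and replicate 3 was inside the DMSO range. The log2 change was 0.17 (SE 0.15, raw p 0.300, adjusted p 0.758). Within the metabotropic genes described here, without Grm6, its share was 17.3%, 18.7% and 21.5% across the DMSO retinas, stood at 37.8% for Sorbinil replicate 1 and was 16.6% for replicate 3.

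Gabrd (chromosome 4, 155469407 to 155482872, minus strand) encodes the delta subunit of GABA-A receptors, which is found outside synapses and carries tonic inhibition. It was the gene with the smallest raw p of the 49. It measured 16.7, 14.5 and 14.5 CPM across DMSO replicates 1 to 3, against 6.37 and 12.7 CPM for Sorbinil replicates 1 and 3. Both Sorbinil retinas lay below every DMSO retina, replicate 3 by a small margin. Its log2 change was -0.67 (SE 0.31, raw p 0.0749, adjusted p 0.758 in edgeR). The raw p was 0.136 with library size scaling and 0.123 to 0.1725 when any 1 DMSO retina was left out, past 0.1 each time. The log2 change was -0.25 (raw p 0.1425) without Sorbinil replicate 1 and -1.26 without Sorbinil replicate 3. The exact permutation p-value on log2(CPM + 0.01) was 0.1, the smallest possible. A long noncoding gene on the other strand shares 203 bases with its exons.

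The alpha subunits Gabra2, Gabra3 and Gabra4 were at 39.45% to 57.0% of their DMSO means in Sorbinil replicate 1 and at 105.5% to 122.4% in replicate 3. Gabra5 had 51, 28 and 18 counts with DMSO and 18 and 18 with Sorbinil, too few to describe its direction. The beta subunits Gabrb1 and Gabrb2 were at 42.9% and 40.6% in replicate 1 and at 152.6% and 141.4% in replicate 3. Gabrg3, a gamma subunit of low level, gave 10.2, 9.87 and 9.02 CPM with DMSO against 4.47 and 15.1 CPM with Sorbinil (log2 change 0.02, SE 0.48, raw p 0.975, adjusted p 0.992). Gabrg1 gave 6.56, 5.955 and 6.32 CPM with DMSO and 4.17 and 8.38 CPM with Sorbinil (log2 change 0.00, SE 0.31, raw p 0.996, adjusted p 0.999). In both genes the Sorbinil retinas lay on opposite sides of DMSO, and the sign of the log2 change turned with the scaling by library size and with other alternatives. Gabre, with 24, 20 and 16 counts in DMSO retinas and 1 and 29 in Sorbinil retinas, and Gabrq were at the low end of the range. Gabre was at 7.26% of DMSO in replicate 1, a value that rests on that single count.

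The 3 rho subunits were alike in both Sorbinil retinas. Gabrr1 (chromosome 4, 33125923 to 33163588, plus strand) gave 108.3, 85.0 and 99.9 CPM across the DMSO retinas, against 46.15 and 97.0 CPM for Sorbinil replicates 1 and 3 (log2 change -0.45, SE 0.32, raw p 0.215, adjusted p 0.758). Its neighbour Gabrr2 gave 57.5, 48.5 and 52.3 CPM with DMSO and 27.55 and 52.8 CPM with Sorbinil (log2 change -0.39, SE 0.28, raw p 0.213, adjusted p 0.758). Gabrr3 was at 57.7% and 110.8% of its DMSO mean. Sorbinil replicate 3 was thus near DMSO for all 3 genes, and above its range for Gabrr3.

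The GABA-B receptor genes, which form a pair, parted in Sorbinil replicate 1. Gabbr1, the subunit that binds GABA, gave 246.8, 226.5 and 211.2 CPM across the DMSO retinas, against 182.9 and 232.8 CPM for Sorbinil replicates 1 and 3 (log2 change -0.13, SE 0.16, raw p 0.432, adjusted p 0.789). Gabbr2, the subunit that couples to the G protein, gave 53.6, 44.25 and 36.2 CPM with DMSO and 14.9 and 48.7 CPM with Sorbinil, and its log2 change was -0.49 (SE 0.49, raw p 0.359, adjusted p 0.764). The level of Gabbr1 per length was 4.06, 4.515 and 5.15 times that of Gabbr2 in DMSO retinas, 10.8 times in Sorbinil replicate 1, and 4.215 times in replicate 3. This ratio was also looked at after the values were seen, and the share of Gabbr1 in the pair had an exact permutation p-value of 0.5.

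Glycine receptor genes were below DMSO in Sorbinil replicate 1 without exception. Glrb, the beta subunit that anchors the receptor to gephyrin, gave 58.1, 53.0 and 51.8 CPM with DMSO and 22.9 and 58.8 CPM for Sorbinil replicates 1 and 3 (log2 change -0.41, SE 0.38, raw p 0.325, adjusted p 0.760). Glra2 gave 17.3, 14.5 and 15.0 CPM with DMSO and 7.34 and 15.7 CPM with Sorbinil (log2 change -0.43, SE 0.33, raw p 0.239, adjusted p 0.758). Glra4 gave 2.265, 1.889 and 2.05 CPM with DMSO, and 0.761 and 1.886 CPM with Sorbinil. Both Sorbinil retinas were below every DMSO retina for Glra4, replicate 3 only by 1.886 against 1.889 CPM, and its log2 change was -0.64 (SE 0.42, raw p 0.187, adjusted p 0.758, exact permutation p-value 0.1). The other alpha subunits, Glra1 and Glra3, were at 36.4% and 45.9% of DMSO in replicate 1 and at 126.2% and 144.6% in replicate 3. The summed alpha level was 2.72, 2.62 and 2.59 times that of Glrb in DMSO retinas and 2.66 and 2.99 times in Sorbinil replicates 1 and 3.

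Levels per length placed the rho and GABA-B genes first. Over all 5 retinas Gabrr1 had the highest mean, 36.6 CPM per kb, before Gabbr1 at 23.5 and Gabrr2 at 18.6, and 6 genes in all were at 10 CPM per kb or more. In DMSO retinas these levels were 41.0 ± 4.94 for Gabrr1, 24.3 ± 1.90 for Gabbr1 and 20.59 ± 1.775 CPM per kb for Gabrr2 (SD, n = 3), with ranges that did not overlap. With Grik1 and Grm6 left out by the choice of genes, the leading glutamate receptor genes were Gria1 at 6.04, Grik5 at 5.885 and Grin1 at 5.88 CPM per kb of merged exons, which did not differ beyond their spread. At the other end 17 genes were under 1 CPM per kb, with Gabra5 at 0.0401 and Gabra6 at 0.0010. Order depended on the length used. With the canonical transcript these 3 genes parted, at 15.1 for Grin1, 11.5 for Grik5 and 8.40 CPM per kb for Gria1, and Gria4, at 10.1, passed Gria1.

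**Figure D3:**
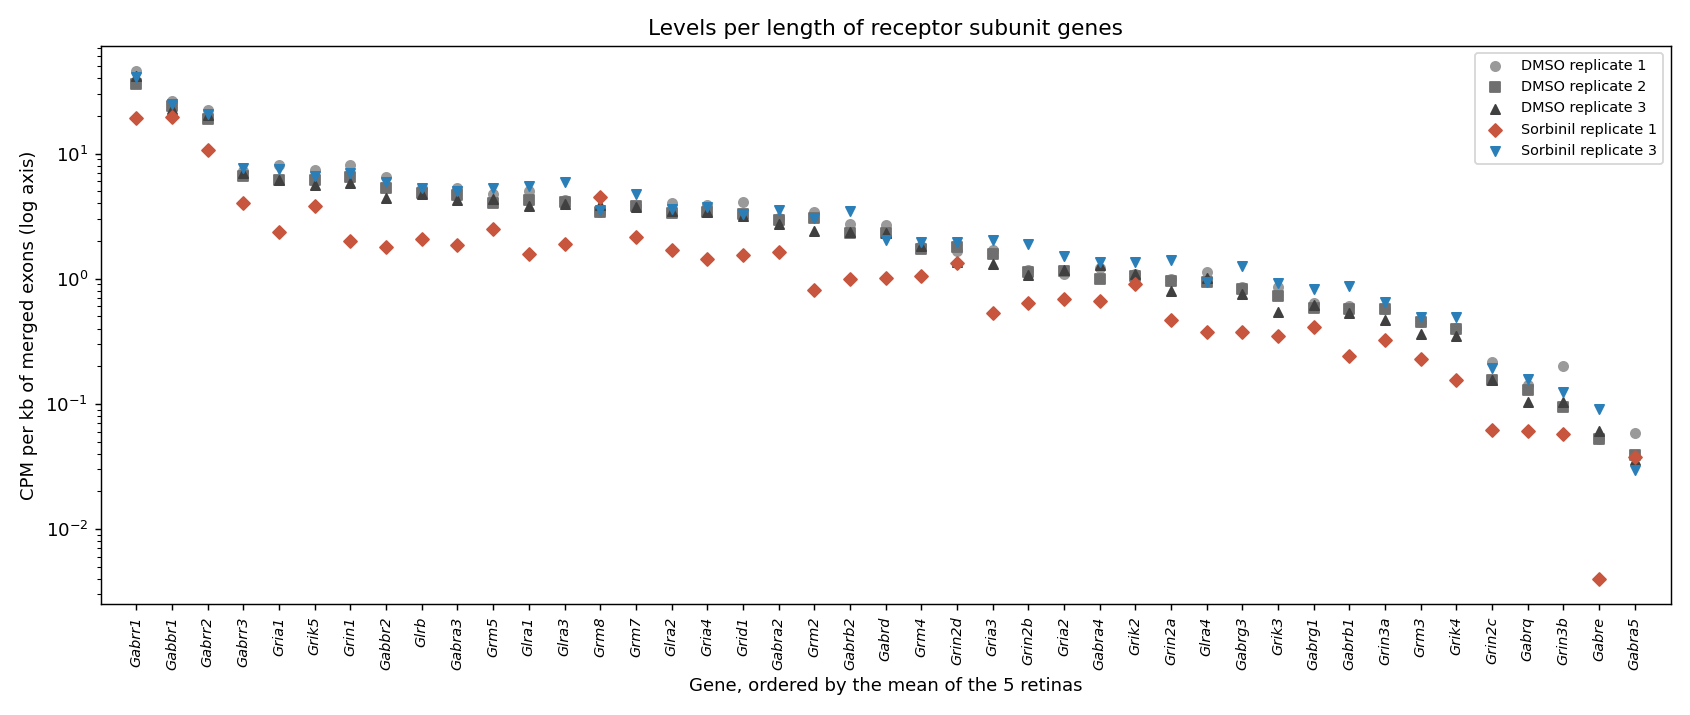
CPM per kb of merged exons (log axis) of 43 receptor subunit genes in each of the 5 retinas, ordered by their mean. Gabrr1 leads at a mean of 36.6 CPM per kb, and Sorbinil replicate 1 is the lowest point for most genes.

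Shares were tested in the same way for the leading subunits of the other families, of which 6 are given. Grik5 took 76.0%, 73.8% and 73.9% of the kainate level without Grik1 in DMSO retinas and 73.0% and 70.3% in Sorbinil replicates 1 and 3. Its exact permutation p-value was 0.1, but the groups overlapped with the GC offsets. Gria1 took 54.7%, 50.2% and 50.8% of the AMPA level with DMSO and 47.0% and 50.8% with Sorbinil (exact permutation p-value 0.4). The exact p-values of the remaining ones were 0.8 for Grm5, 0.3 for Gabrr1, 0.5 for Gabbr1 and 0.3 for Glrb. Over the 11 shares tested, the lowest p-value after Benjamini-Hochberg adjustment was 0.55, the value for Grin1 (exact permutation test). The summed glutamate receptor level, metabotropic genes included and Grik1 and Grm6 left out, was divided by that of GABA and glycine receptors. This ratio was 0.326, 0.330 and 0.301 in DMSO retinas and 0.309 and 0.335 in Sorbinil retinas, so that it overlapped between groups.

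The medians of the families were all below 0. The median log2 change was -0.36 for AMPA, -0.19 for kainate, -0.14 for NMDA and -0.23 for metabotropic genes. It was -0.42 for GABA-A alpha, -0.03 for beta, -0.39 for rho, -0.31 for GABA-B and -0.41 for glycine receptor genes, and -0.18 for the gamma, delta, epsilon and theta subunits. In Sorbinil replicate 1 the median of single-retina differences, log2(CPM + 0.01) minus the DMSO mean, ran from -1.41 for AMPA genes to -0.83 for metabotropic genes. In Sorbinil replicate 3 the medians ran from 0.00 for the rho genes to 0.50 for the beta genes.

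By their medians, markers of bipolar, amacrine, ganglion and horizontal cells were below DMSO in Sorbinil replicate 1, as the receptor genes were. In Sorbinil replicate 3 these marker medians lay inside the range of the single DMSO retinas. That of the receptor genes was 0.23, above DMSO replicates 1 to 3 at 0.13, -0.04 and -0.10. In Sorbinil replicate 1 the median difference from the DMSO mean was -1.18 for 14 bipolar markers, -1.42 for 14 amacrine markers, -1.23 for 15 ganglion cell markers and -0.71 for 7 horizontal markers, and in Sorbinil replicate 3 it was -0.03, 0.15, -0.17 and 0.09. Rod markers were at 0.52 in replicate 1 and -0.32 in replicate 3, and cone markers were at 0.53 and -0.20. Müller glia were at -1.45 and 0.01, microglia at -0.90 and -0.12, endothelium and pericytes at -1.83 and -0.49, and pigment epithelium at -0.84 and 0.06. For pigment epithelium the DMSO retinas themselves were spread widely, at -0.38, -0.48 and 0.87 for replicates 1 to 3. No marker was at 0 in any retina. None of the neuronal markers was called. Of 10 endothelial and pericyte markers, 4 were called lower (Cdh5, Cldn5, Tek and Vwf), against 1.35% of all genes tested. The part of these shifts in the receptor values was not tested.

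**Figure D4:**
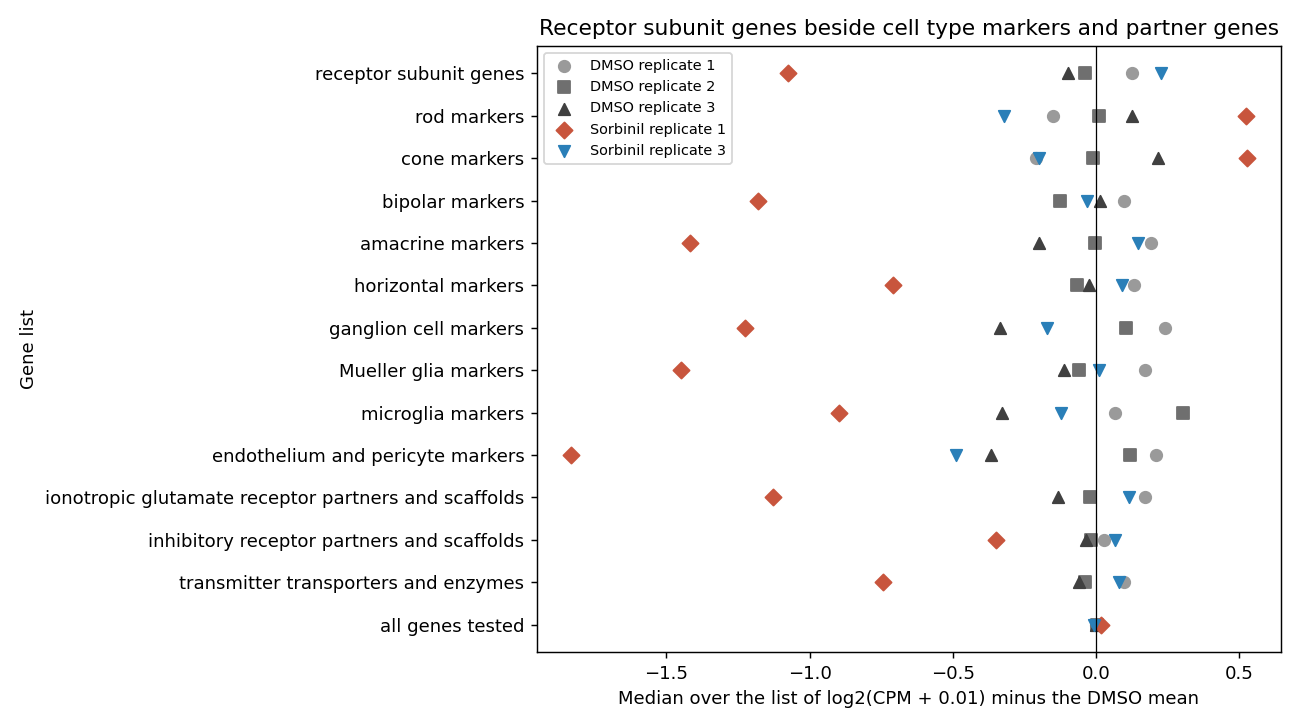
Median of log2(CPM + 0.01) minus the DMSO mean, in each of the 5 retinas, over the receptor subunit genes, lists of cell type markers, 3 lists of related genes and all genes tested. Sorbinil replicate 1 is at -1.08 for the receptor genes, -1.42 for amacrine markers and 0.52 for rod markers, and Sorbinil replicate 3 is at 0.23, 0.15 and -0.32.

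Other genes of these pathways, taken as 3 lists chosen by function, had 0 genes past the study's threshold. Over all genes tested, 1.35% were called lower and 0.36% higher. Of the 49 partners and scaffolds of ionotropic glutamate receptors, 44 had a log2 change below 0, with a median of -0.36. Those with the smallest raw p were lower for Porcn, which binds AMPA receptors in the endoplasmic reticulum (log2 change -0.36, raw p 0.0542 in edgeR's quasi-likelihood test), and Nptx1, a pentraxin that clusters AMPA receptors (-0.58, raw p 0.0685). On the higher side they were Homer1, a scaffold that ties group I metabotropic receptors to calcium stores (0.37, raw p 0.104), and Dlg1, a scaffold protein (0.24, raw p 0.168), and neither passed a raw p of 0.1.

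The 29 partners of inhibitory receptors had a median of -0.06, with 17 genes below 0. Trak2, an adaptor of kinesin transport that binds GABA-A receptors, gave 237.3, 209.5 and 219.0 CPM with DMSO and 267.6 and 266.4 CPM with Sorbinil, a log2 change of 0.27 (SE 0.12, raw p 0.0752, adjusted p 0.758). Both Sorbinil retinas were above every DMSO retina for 2 of the 29 genes, Trak2 among them, against 12.8% of all genes tested. Gphn, which encodes gephyrin, the scaffold under glycine and GABA-A receptors, was at 56.9, 62.6 and 66.0 CPM with DMSO, 84.3 CPM in Sorbinil replicate 1 and 57.5 CPM in replicate 3, and its log2 change of 0.20 had a raw p of 0.335. Its receptor partner Glrb was the other way in replicate 1. On the lower side were Insyn2a (-0.46, raw p 0.240) and Kctd12b (-0.57, raw p 0.255).

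Transporters and enzymes of the transmitters had a median log2 change of -0.19 over 37 genes tested. Slc1a2, a transporter that clears glutamate from synapses, was at 741.8, 769.1 and 807.1 CPM with DMSO, and reached 1210 CPM in Sorbinil replicate 1 and 967.8 CPM in replicate 3. The log2 change of Slc1a2 was 0.50 (SE 0.17, raw p 0.0275, adjusted p 0.758), and both Sorbinil retinas were above every DMSO retina. That was so for 2 of the 37 genes, against 12.8% of all genes tested. Both were below every DMSO retina for 2, against 10.5%. Srr, the enzyme that makes D-serine, a co-agonist of NMDA receptors, gave 35.4, 37.5 and 37.2 CPM with DMSO and 49.6 and 40.2 CPM with Sorbinil (log2 change 0.29, SE 0.13, raw p 0.0738, adjusted p 0.758), also without overlap. Slc6a12, a betaine and GABA transporter, was lower, at 3.22, 2.54 and 3.455 CPM with DMSO and 1.08 and 2.225 CPM with Sorbinil (log2 change -0.88, SE 0.38, raw p 0.0593, adjusted p 0.758). Glud1, glutamate dehydrogenase, had a log2 change of -0.18 (raw p 0.150).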

How the data were processed

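Total RNA of injured whole mouse retinas was sequenced, with 3 DMSO and 2 Sorbinil retinas. After trimming, the authors mapped reads with CLC Genomics Workbench (GRCm39), and the counts they deposited are whole numbers per gene, without normalization. The labels name a reverse-stranded total RNA kit and the paper names another kit. The annotation release, the use of strand and the handling of reads on several genes are not given in the sources used here, and overlapping genes could therefore share counts. Columns were assigned to retinas by name, and 0 value columns were left out.

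The software was R 4.3.3, edgeR 4.0.16 and limma 3.58.1. The function filterByExpr removed low genes (minimum count 10), TMM factors scaled the libraries, and edgeR's quasi-likelihood functions glmQLFit and glmQLFTest compared Sorbinil with DMSO in a fit of all 14992 genes, with p-values adjusted after Benjamini and Hochberg. The threshold was a 2-fold change with an unadjusted p no higher than 0.1. CPM per retina are scaled by TMM, and single retinas use log2(CPM + 0.01). Exact permutation tests used all 10 groupings of the 5 retinas. Lengths are merged exons of GENCODE M39.

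Alternative settings changed the filter (none, or a minimum of 10 counts in each library), the scaling (size factors of DESeq2 1.42.0, upper quartiles, or library size), the genes (mitochondrially encoded genes left out) and the test (likelihood ratio, or the Wald test of DESeq2), and also covered other thresholds, the replicate number as a block, counts not divided by length, and leaving out each retina. Offsets for GC content and length and the canonical transcript length were added after the data were seen. The filter, the TMM scaling and the quasi-likelihood, likelihood ratio and Wald tests were run on simulated counts with known changes. Shares, permutation tests and the other alternatives were not.

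The genes and lists were chosen with earlier results of these data known. Full values go to genes called at the threshold, genes with an unadjusted p-value under 0.05, the 2 smallest p-values in each direction within glutamate, GABA and glycine receptors, and the leading gene of each family by level. Of the other lists, called genes and, in the 3 pathway lists, the 2 smallest p-values in each direction are named. Marker lists are given as counts and medians. Within groups, counts of every pair of retinas differed beyond counting noise (chi-square per degree of freedom, 24.6 to 324), so each retina is 1 replicate. The p-values measure the spread between these retinas. Some genes that the naming rule covers are not reported here, and the plots of single genes leave them out.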

Additional observations from a re-analysis of the deposited data

How the results depend on the processing

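The median log2 change of the receptor genes, -0.24, was -0.397 with the replicate number as a block. It ran from -1.081 to 0.23 when each retina was left out in turn, with the positive value without Sorbinil replicate 1. Counts of called genes in this paragraph are of the receptor genes only. Genes called at the threshold, all of them lower, numbered 0 to 26 over the same fits, with 26 without Sorbinil replicate 3, and 1 when the fold limit was dropped. The deviations of same-numbered retinas correlated at -0.243 for number 1 and -0.125 for number 3. With only Sorbinil replicates 1 and 3, their deviations from the group mean are mirror images. DMSO replicate 1 thus correlated at -0.243 with Sorbinil replicate 1 and at 0.243 with Sorbinil replicate 3. These correlations therefore could not decide whether replicate numbers pair the retinas. With the block, 0 of the 49 receptor genes were called.

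When each retina was left out, the log2 changes of 12 named genes changed sign, with these lowest and highest values, without Sorbinil replicate 3 and without Sorbinil replicate 1 in turn: Gria1 -1.523 to 0.154, Grik5 -0.745 to 0.058, Grin1 -1.761 to 0.035, Grm5 -0.799 to 0.293, Gabrr1 -1.081 to 0, Gabrr2 -0.937 to 0.011, Gabbr1 -0.317 to 0.04, Glra2 -1.086 to 0.021, Glrb -1.247 to 0.125, Grin2b -0.813 to 0.765, Gabrg1 -0.59 to 0.428 and Gabrg3 -1.115 to 0.648. The replicate block gave -0.023 for Grin2b, -0.121 for Gabrg1 and -0.217 for Gabrg3, library size scaling -0.049 for Gabrg1 and -0.005 for Gabrg3, offsets for GC content and length -0.251 for Gabrg1 and -0.083 for Gabrg3, and at least 10 counts in every retina -0.002 for Gabrg1. Shares of the family level, Sorbinil minus DMSO in percentage points, turned positive with the GC offsets for Gria1 (2.073) and Grik5 (1.122). Leaving out retinas gave -2.229 to 1.446 for Grm5 and -1.127 to 9.599 for Gabbr1. The cause of these changes was not tested.

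Among the log2 changes of named genes under alternatives, 210 kept their direction and their side of the threshold, 22 changed sign and 8 passed the threshold with their sign kept, all 8 without Sorbinil replicate 3, a fit in which Gabrg3 also passed it but with its sign changed. Low counts limit Gabre, Gabra5 and Grin3b most, and 2 Sorbinil retinas allow no exact p-value under 0.1. Without molecular identifiers, the counting error understates the true error.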
